A study of Mus musculus with 7 samples.

Results

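The subcortical maternal complex was examined through 8 genes, *Ooep*, *Khdc3*, *Zbed3*, *Padi6*, *Tle6*, *Nlrp5*, *Nlrp4f* and *Nlrp2*, which were taken by symbol from what is known of the complex. All 8 were found by symbol among the 22877 genes of the deposited table. In *Mfn1*-/- oocytes 6 of them had a higher and 2 a lower mean level than in WT oocytes. Genes with a mean of at least 1 also leaned higher, with a median log2 ratio of 0.16. This count alone therefore does not set the members apart. When the median difference of genes with a mean of at least 1 was subtracted, 5 were higher and 3 lower. By 2-fold or more, 0 of the 8 differed, against 7.65% of all genes. *Padi6* had the largest difference, 1.59-fold higher in *Mfn1*-/- oocytes, and *Nlrp2* and *Nlrp4f* were the members with a lower mean.

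The complex is an assembly of maternal proteins beneath the membrane of the growing and mature oocyte. Its mRNAs are made and stored while the oocyte grows, and the proteins persist into the cleaving embryo. Females that lack a core member such as NLRP5, TLE6 or OOEP ovulate eggs whose embryos arrest early in cleavage. PADI6 is also needed for the cytoplasmic lattices, fibrous structures of the oocyte in which maternal proteins and ribosomal components are held.

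The oocytes came from secondary follicles of C57BL/6J mice aged 8 weeks, and each RNA-seq library was made from a pool of 5. There were 4 WT libraries and 3 libraries of *Mfn1* fl/fl/*Zp3-Cre* mice, called *Mfn1*-/- throughout (KO in the labels), and the WT animals were littermates. Cre is driven by the *Zp3* promoter, which is active from the start of oocyte growth, so *Mfn1* is deleted in growing oocytes and the granulosa cells keep the gene. Mitofusin 1, its product, fuses the outer membranes of mitochondria. The study's description counts fewer WT libraries than the labels list. Whether WT animals carried floxed alleles without Cre, and whether each library came from a separate mouse, is not given in the sources used here.

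The deposited values are 1 mean of normalized counts per genotype and gene, so the spread between libraries and the depth per library are unknown and no test was run from these means. The table's own columns of p-values were not used, and every difference below is a description of authors' means. A sum over libraries is given too, which within 1% was what 3 *Mfn1*-/- and 4 WT libraries with these means add up to, for 100% of its genes. *Mfn1* itself had a mean of 0.616 in WT and 0.0577 in *Mfn1*-/- oocytes, which fits the labels. Log2 ratios of *Mfn1*-/- over WT were computed after adding 0.1 to each mean. Genes whose mean over all 7 libraries reached 1 are called expressed here. There were 6226, with a median log2 ratio of 0.16, and a value given relative to this shift has the 0.16 subtracted.

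All 12 oocyte markers had a row, and their means summed to 2663 in WT and 2838 in *Mfn1*-/- oocytes. The germ cell factor *Dppa3* led them with 816 in WT and 812 in *Mfn1*-/- oocytes. The lowest were the germ cell helicase gene *Ddx4*, with 1.51 and 2.74, and the receptor gene *Kit*, with 0.922 and 0.679. Of 15 granulosa markers, 13 had a row, and their means summed to 3.64 in WT and 3.34 in *Mfn1*-/- oocytes. Of the 13, 4 were higher and 9 lower in *Mfn1*-/- oocytes, and 2 had a mean of at least 1. *Esr2*, the estrogen receptor beta gene, was highest with 1.86 in WT and 0.929 in *Mfn1*-/- oocytes. *Inha*, the inhibin alpha gene, had 0.954 and 1.87, so these 2 genes offset each other in the sums. The FSH receptor gene *Fshr* had 0.0171 and 0.016. The 5 theca or stroma markers with a row summed to 0.174 and 0.163, led by the cholesterol carrier gene *Star* with 0.105 in WT oocytes. Of 6 blood or immune markers only the macrophage gene *Cd68* had a row, with 0.672 in WT and 7.58 in *Mfn1*-/- oocytes. Outside the list, the complement gene *C1qb* had 9.17 and 4.25, and the immunoglobulin gene *Iglc3* had 93.9 and 94. The value of *Cd68* alone therefore does not describe blood or immune cells. The part of such cells in the differences below was not tested, and in pooled cells less RNA per cell and fewer cells of a type cannot be told apart.

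The complex genes ranked high in WT oocytes. *Ooep*, which encodes a KH-domain protein of the core (also called FLOPED), had a WT mean of 1120 normalized counts and ranked 6 of 22877. *Khdc3*, which encodes the KH-domain protein FILIA, followed at 477 and rank 29. *Zbed3*, whose product carries a BED zinc finger, had 204 and rank 96. *Padi6*, a member of the peptidylarginine deiminase family, had 128 and rank 182. *Tle6*, an oocyte-restricted relative of the Groucho corepressors and part of the core, had 99.9 and rank 235. Thus 5 of the 8 were among the 250 highest means of the table.

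The NLRP members stood lower. *Nlrp5* encodes MATER, the third protein of the core, and had a WT mean of 23.9 and rank 946. *Nlrp4f* had 21.3 and rank 1029. *Nlrp2*, the lowest member, had 5.22 and rank 2639, still within the top 11.5% of the table. The order of the 8 was the same in *Mfn1*-/- oocytes.

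**Figure D1:**
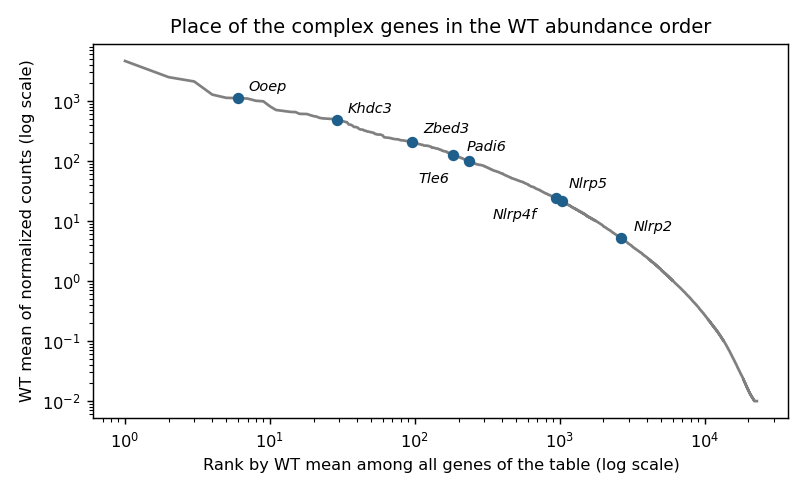
All genes of the table ordered by WT mean of normalized counts (both axes logarithmic, grey line), with the 8 complex genes as blue points. *Ooep* sits at rank 6 and *Nlrp2* at rank 2639, with *Nlrp5* and *Nlrp4f* next to each other.

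Whether the deposited values were divided by gene length is not given in the sources used here. Among 4449 protein-coding genes with a WT mean of at least 1, shorter genes had higher values, with a Spearman's rho of -0.376 between WT mean and transcript length, a description across genes with no test. Because the scale is not known, levels were also divided by the longest transcript of each gene. The negative correlation does not call for this step. If the deposited values were already per length, it divides them again and favours short genes. On this per-kilobase scale *Ooep* had 524 normalized counts per kb and ranked 42 of 21895 genes with a length. *Khdc3* had 284 per kb, *Zbed3* 105, *Padi6* 54.9, *Tle6* 49.6, *Nlrp5* 6.81, *Nlrp4f* 6.00 and *Nlrp2* 1.53. The order of the members was the same on this scale, and the WT levels per kb spanned 342-fold from *Ooep* to *Nlrp2*. As deposited, the WT levels spanned 215-fold. The closest neighbours per kb in WT oocytes were *Padi6* and *Tle6*, 1.11-fold apart, and *Nlrp5* and *Nlrp4f*, 1.14-fold apart. In *Mfn1*-/- oocytes these gaps were 1.39-fold and 1.50-fold, and whether gaps of this size exceed the spread between libraries cannot be said from means. Between the core members, the WT level of *Tle6* was 7.28 times and that of *Ooep* 76.9 times the level of *Nlrp5* per kb. On the deposited scale these were 4.18 and 46.9 times. The rank of *Nlrp5* per kb was 1726 and that of *Nlrp2* was 3689.

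The question of the genotype comparison is whether the stored mRNAs of the complex differed in oocytes without *Mfn1*. The 8 members had a median log2 ratio of 0.24, against 0.16 over expressed genes and 0.037 over all 22877 genes, and their median relative to the shift was 0.078. No member (0 of 8) reached 2-fold, against 7.65% of all genes and 8.74% of the 6226 expressed genes. At a background of this size a count of 0 among 8 genes does not set the members apart. Of the 1749 genes past 2-fold in the table, 1118 (4.89% of all genes) were higher and 631 (2.76%) lower in *Mfn1*-/- oocytes. After the shift was subtracted 1734 genes were past 2-fold, of which 818 were higher and 916 lower. Among expressed genes 5.49% were higher and 3.24% lower by 2-fold. The log2 ratios of 5 members lay between the quartiles of expressed genes, which were -0.12 and 0.42.

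*Padi6* had a mean of 203 in *Mfn1*-/- oocytes against 128 in WT oocytes. The log2 ratio was 0.66, higher than that of 87.6% of expressed genes. Its rank moved from 182 to 107. It was the 1 member of 8 with a difference of at least 1.5-fold, a size found in either direction for 19.3% of all genes and 23.2% of expressed genes. In the direction of *Padi6* the shares were 12.4% and 15.5%. The log2 ratio of *Padi6* fell short of 1.5-fold under both other scalings, at 0.51 relative to the shift and 0.53 with the *Mfn1*-/- total scaled to the WT total.

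*Zbed3* had a mean of 269 against 204 in WT oocytes, a log2 ratio of 0.40. For *Tle6* the means were 126 and 99.9, a log2 ratio of 0.33. Relative to the shift these were 0.24 and 0.18, and 73.3% and 67.5% of expressed genes had a lower log2 ratio than *Zbed3* and *Tle6*.

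*Ooep*, *Khdc3* and *Nlrp5* lay closest to the median of expressed genes. *Ooep* had 1310 in *Mfn1*-/- and 1120 in WT oocytes, a log2 ratio of 0.23 that became 0.067 relative to the shift, and it ranked 6 in both genotypes. *Khdc3* had 567 and 477, a log2 ratio of 0.25 and 0.090 relative to the shift. *Nlrp5* had 26.6 and 23.9, a log2 ratio of 0.15, which turned to -0.0054 relative to the shift, so its direction depends on the scaling. All 3 were within 0.1 of that median on the log2 scale.

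*Nlrp2* and *Nlrp4f* had the lower means in *Mfn1*-/- oocytes, under every pseudocount and scaling tried. *Nlrp2* had 3.95 against 5.22 in WT oocytes, a log2 ratio of -0.39 and -0.55 relative to the shift. *Nlrp4f* had 18 against 21.3, a log2 ratio of -0.24 and -0.40 relative to the shift. Of the expressed genes, 12.0% had a log2 ratio below that of *Nlrp2* and 17.7% below that of *Nlrp4f*. Neither was 1.5-fold lower, as 6.88% of all genes and 7.71% of expressed genes were.

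**Figure D2:**
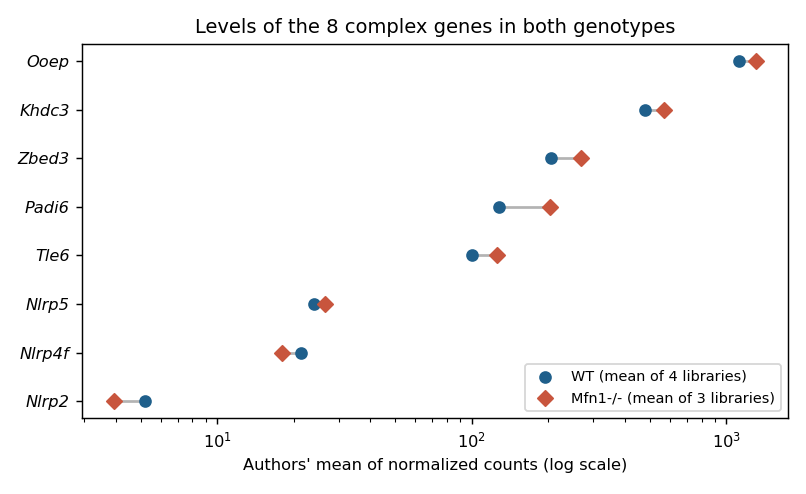
Authors' mean of normalized counts (logarithmic axis) of the 8 complex genes in WT (blue circles, mean of 4 libraries) and *Mfn1*-/- oocytes (red diamonds, mean of 3 libraries), with a grey line joining the means of a gene; no error bars can be drawn from means. *Padi6* has the widest gap, 128 to 203, and *Nlrp4f* and *Nlrp2* have the diamond on the lower side.

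Together the 8 means summed to 2079 in WT and 2524 in *Mfn1*-/- oocytes. This was 1.60% and 1.77% of all normalized counts, of which *Ooep* alone held 0.860% and 0.919%. Within the sum, *Ooep* made up 53.9% in WT and 51.9% in *Mfn1*-/- oocytes, and *Khdc3* 22.9% and 22.5%. The share of *Padi6* was 6.16% in WT and 8.04% in *Mfn1*-/- oocytes. *Nlrp4f* went from 1.02% to 0.713% and *Nlrp2* from 0.251% to 0.157%. These shares are on the deposited scale, and per kb the share of *Padi6* was 5.32% and 6.95% and that of *Ooep* 50.8% and 49.0%. Set against the core member *Nlrp5*, the *Padi6* level per kb was 8.05 times as high in WT and 11.5 times as high in *Mfn1*-/- oocytes. On the deposited scale these were 5.36 and 7.63 times.

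**Figure D3:**
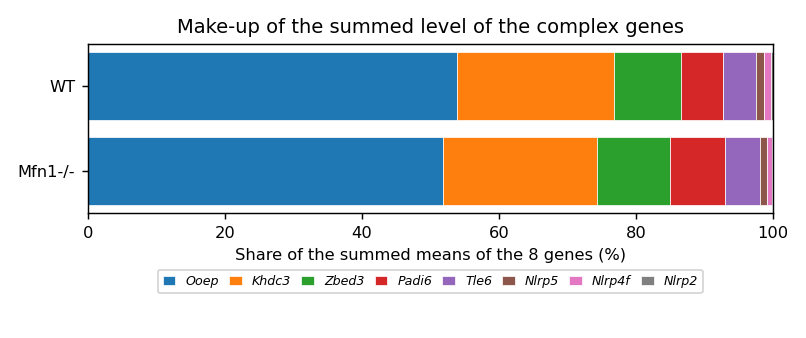
Share of each complex gene in the summed means of the 8 genes (%, deposited scale, not per length) in WT and *Mfn1*-/- oocytes, as stacked bars from 0 to 100. *Ooep* and *Khdc3* fill most of both bars, and the *Padi6* share goes from 6.16% to 8.04%.

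On GRCm38 (GENCODE M21), *Ooep* (chr9:78376109-78378725) and *Khdc3* (chr9:73101836-73104438) lie 5.27 Mb apart on chromosome 9, with similar log2 ratios of 0.23 and 0.25. *Nlrp5* (chr7:23385889-23441922) and *Nlrp2* (chr7:5298547-5351035) are 18.0 Mb apart on chromosome 7, with log2 ratios of opposite sign. *Nlrp4f* (chr13:65177111-65205977) and *Zbed3* (chr13:95323612-95337841) are 30.1 Mb apart on chromosome 13, and their signs were opposite too. *Padi6* (chr4:140727355-140742643) and *Tle6* (chr10:81590904-81601073) are alone on their chromosomes. Annotated genes overlap 4 of the members. *Khdc3* shares 1969 bases with *Gm20509* on the same strand, whose mean was 0.017 in WT oocytes. *Nlrp5* and *Zbed3* hold small RNA genes.

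A pair of annotated genes overlaps *Nlrp2*. *Gm5065* overlaps it by 499 bases on the opposite strand and had means of 19.4 in WT and 11.5 in *Mfn1*-/- oocytes. The pseudogene *Gm18757*, also on the opposite strand, overlaps it by 3141 bases, had 1.27 and 0.364 and shares a run of 106 identical bases with *Nlrp2* transcripts. Their log2 ratios were -0.75 and -1.56. Strand was not given for the counting, and the Smart-Seq2 and Nextera XT steps do not mark it, so reads of *Nlrp2* and of these genes may not be separable where they overlap. How much they contributed was not tested.

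*Nlrp4f* shares sequence with paralogs. The reads were 75 bases long and came in pairs. Transcripts of 2 other genes hold a run of at least 75 bases identical to *Nlrp4f*. The longest match is with *Nlrp4g*, 92.6% identity over 2059 aligned bases, and *Nlrp4g* had means of 18.2 in WT and 17.1 in *Mfn1*-/- oocytes, close to those of *Nlrp4f*. Of the 1723 ungapped stretches of 75 bases inside a coding exon of *Nlrp4f* in this match, 54 (3.13%) had no difference from *Nlrp4g*, and the median was 4 differences. A stretch with the median number is shown here for both genes, from the transcript sequences of GENCODE M21, to let a reader see how far a read can tell them apart. Capitals mark the bases that differ. *Nlrp4f* is read on the minus strand of chr13:65195470-65195544 and *Nlrp4g* on the plus strand of chr9:124348882-124348956.
Nlrp4f: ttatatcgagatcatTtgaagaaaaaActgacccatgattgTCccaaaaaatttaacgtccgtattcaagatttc
Nlrp4g: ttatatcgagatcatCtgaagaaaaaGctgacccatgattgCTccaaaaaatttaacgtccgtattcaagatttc

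Copies of the other members were searched in the same way. No transcript of another gene held a run of 75 bases identical to *Tle6*, *Padi6* or *Zbed3*. For *Nlrp5* there was 1, *Nlrp5-ps*, with an identical run of 171 bases and means of 0.0195 in WT and 0.0298 in *Mfn1*-/- oocytes. *Ooep* shared a run of 77 bases with 1 gene, and *Khdc3* a run of 466 bases with the overlapping *Gm20509*.

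Most members belong to families with other genes in the table, and these were compared by family. In the NLRP family, 12 of 17 other genes had a row and 0 differed by 2-fold, against 7.65% of all genes. For *Nlrp6*, *Nlrp12* and *Nlrx1*, with means under 0.1 in both genotypes, this was fixed by the 0.1 added to each mean. Over the 12 genes, 5 were higher and 7 lower in *Mfn1*-/- oocytes, with a median log2 ratio of -0.087. Of the 12, 7 had a mean of at least 1. *Nlrp14*, an oocyte gene whose protein is found in the lattices, was highest at 154 in WT and 209 in *Mfn1*-/- oocytes, a log2 ratio of 0.44. The 6 remaining NLRP genes with a mean of at least 1, *Nlrp4a*, *Nlrp4b*, *Nlrp4g*, *Nlrp9a*, *Nlrp9b* and *Nlrp9c*, all had lower means in *Mfn1*-/- oocytes, with log2 ratios from -0.48 to -0.089 and a median of -0.33. They were lower under each pseudocount and scaling, with medians from -0.49 to -0.30. The lower quartile of the log2 ratios of expressed genes was -0.12. *Nlrp4f* and *Nlrp2* thus had the sign of these 6, and *Nlrp5* that of *Nlrp14* on the deposited scale but not relative to the shift. Identical runs of at least 75 bases link *Nlrp4a*, *Nlrp9a*, *Nlrp9b* and *Nlrp9c* with other genes, so their reads may not be fully separable. *Nlrp4g* shares a run of 96 bases with *Nlrp4f*, so these 2 genes may not be fully separate observations. Of the stretches compared above, 3.13% had no difference between them.

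The KH-domain family of *Ooep* and *Khdc3* spread widest. *Dppa5a*, a pluripotency-associated gene 7.93 kb from *Ooep*, had 1280 in WT and 2220 in *Mfn1*-/- oocytes, a log2 ratio of 0.79. It shares identical runs of at least 75 bases with 6 other genes, which makes its value uncertain. *Khdc1b* had 245 and 319. Its neighbours *Khdc1a*, with 14.3 and 8.97, and *Khdc1c*, with 11 and 5.61, had log2 ratios of -0.67 and -0.96 and share a run of 421 bases. None of the 4 reached 2-fold, against 7.65% of all genes. After the shift was subtracted or the *Mfn1*-/- total was scaled to the WT total, 1 did.

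Relatives of *Tle6*, *Padi6* and *Zbed3* were scarce in these oocytes. The 3 PADI genes with a row had WT means of at most 0.0392, led by *Padi1*, against 128 for *Padi6*. Among 4 TLE genes the short family member *Aes* was highest with 2.71 in WT and 4.95 in *Mfn1*-/- oocytes, a log2 ratio of 0.85. *Zbed5* had 1.17 and 1.06. None of these 9 genes differed by 2-fold, against 7.65% of all genes. For the PADI genes, with means of at most 0.0485 in either genotype, this was fixed by the 0.1 added to each mean. Of the TLE genes 1 and of the ZBED genes 1 had a mean of at least 1.

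Partners of the complex and lattice proteins were compared as a list of 18 genes, of which 17 had a row. None differed by 2-fold, against 7.65% of all genes and 8.74% of expressed genes, so this count does not set the list apart. The median log2 ratio was 0.093, and the values ran from -0.25 to 0.44. On the deposited scale 10 were higher and 7 lower in *Mfn1*-/- oocytes, and relative to the shift 3 were higher and 14 lower. *Fbxw24*, an oocyte F-box gene, was highest with 178 in WT and 197 in *Mfn1*-/- oocytes. *Uhrf1*, which guides maintenance DNA methylation and is held in the oocyte cytoplasm, had 4.97 and 4.42. *Cfl1*, the actin-severing cofilin, had 86.7 and 108. *Ube2d3*, a ubiquitin-conjugating enzyme, had 33.8 and 28.5.

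**Figure D4:**
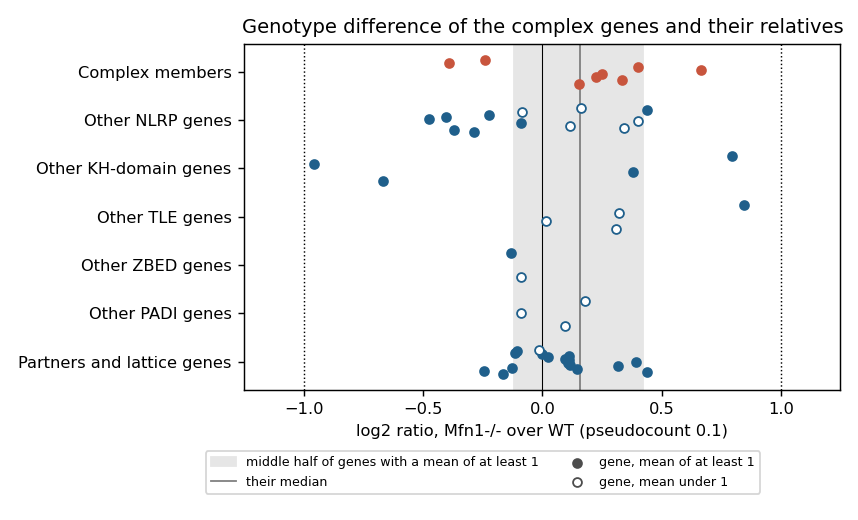
Log2 ratio of *Mfn1*-/- over WT (pseudocount 0.1) for the 8 complex genes (red) and related lists (blue), with filled points for genes with a mean of at least 1 and open points for lower ones. The grey band runs between the quartiles of expressed genes, -0.12 to 0.42, around their median of 0.16, dotted lines mark 2-fold, and every gene shown lies inside them.

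Transcription of several complex genes during oocyte growth is known to depend on FIGLA, a basic helix-loop-helix factor that binds E-boxes, and on the homeobox factor NOBOX. Of 9 such regulators of oocyte genes, all had a row and 1 differed by 2-fold, a share near the 7.65% of all genes and 8.74% of expressed genes. *Nobox* was highest with 94.9 in WT and 124 in *Mfn1*-/- oocytes, a log2 ratio of 0.39. *Figla* had 18.7 and 34.9, a log2 ratio of 0.90, larger than that of any complex gene. *Sohlh1*, a factor of early oocyte growth, had 0.105 and 3.68, a log2 ratio of 4.20, and the count of 1 held under each pseudocount and scaling. The median of the 9 was 0.096.

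The 250 bases before the RefSeq start were searched on both strands for the E-box CANNTG, whose middle bases may be any, and for the homeobox motif TAATTG. The searches found no overlapping matches except at *Khdc3*. CANNTG was found for 7 of the 8 members, and 66.2% of the 32851 windows of all genes hold it. TAATTG was found for 1, *Ooep*, against 7.17% of all windows. The RefSeq start lies 137 to 562 bases from the GENCODE start for *Ooep*, *Tle6*, *Nlrp4f* and *Khdc3*, and 7 bases from it for *Zbed3*. The windows of 3 members with the same start in both annotations are printed, since they cover the member with the largest difference, a core member near the shift and the member with the lowest level. E-boxes are in capitals. They come from RefSeq on GRCm38.p6, at chr4:140742644-140742893 on the minus strand for *Padi6*, chr7:23385639-23385888 on the plus strand for *Nlrp5* and chr7:5351036-5351285 on the minus strand for *Nlrp2*.
Padi6: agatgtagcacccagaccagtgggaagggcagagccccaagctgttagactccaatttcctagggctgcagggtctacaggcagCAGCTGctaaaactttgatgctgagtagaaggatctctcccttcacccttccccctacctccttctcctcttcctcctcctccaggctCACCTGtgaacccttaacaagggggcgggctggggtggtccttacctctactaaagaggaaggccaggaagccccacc
Nlrp5: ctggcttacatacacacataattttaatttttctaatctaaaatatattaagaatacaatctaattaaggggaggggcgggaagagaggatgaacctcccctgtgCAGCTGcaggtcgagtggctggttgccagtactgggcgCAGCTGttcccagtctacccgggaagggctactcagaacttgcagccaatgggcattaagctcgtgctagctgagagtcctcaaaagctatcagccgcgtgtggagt
Nlrp2: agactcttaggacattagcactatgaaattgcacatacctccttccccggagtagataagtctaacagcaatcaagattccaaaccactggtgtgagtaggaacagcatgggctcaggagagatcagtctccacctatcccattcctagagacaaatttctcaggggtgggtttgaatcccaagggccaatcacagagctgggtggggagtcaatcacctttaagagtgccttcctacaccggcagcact

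*Padi6* and *Nlrp5* each hold 2 E-boxes in this window and *Nlrp2* holds 0. These matches describe the letters of the windows, and no binding was measured in these oocytes.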

How the data were processed

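RNA sequencing of 7 libraries (4 WT, 3 *Mfn1*-/-; 5 oocytes each) was analysed. The authors amplified poly(A) RNA with Smart-Seq2, made Nextera XT libraries, and used Cutadapt and the FASTX-Toolkit on the reads before alignment by STAR (genome GRCm38/mm10) and counting per gene. The DESeq package is named for the authors' comparison of genotypes. How the deposited means were normalized, and the annotation version, are not given in the sources used here. The deposited signal consists of normalized counts averaged within a genotype, with a lowest value of 0.01, and their sum over libraries; precision per library is unknown. The table also holds 4 columns of the authors' own comparison (p-value, FDR, ratio, fold change), which were not used. There were 0 unused columns of per-sample values.

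Log2 ratios (pseudocount 0.1), a 2-fold threshold and ranks were computed over all 22877 genes with Python 3.11.15, numpy 2.4.6, pandas 2.3.3 and matplotlib 3.10.9, and checked on simulated data. The tests planned for single libraries could not be fitted to genotype means. Gene symbols were matched to GENCODE M21 (GRCm38), where 21895 rows were found once, and to RefSeq promoter windows of GRCm38.p6. Transcripts were compared with blastn 2.17.0.

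The members and lists were chosen with earlier results of these data known. Named genes are the members, *Mfn1*, the highest gene of each list by WT mean, list genes past 2-fold with a mean of at least 1, and the protein-coding genes ranked directly above and below each member. Tied means were put in alphabetical order of symbol. Other list genes, overlapping genes, copies and the few genes named from outside the lists were chosen for naming once values were known. The alternatives were pseudocounts of 0.01 and 1, subtraction of the median of expressed genes, scaling to equal totals, a 1.5-fold threshold, minimum means of 0.1 and 1, values per transcript length, ranks by *Mfn1*-/- mean and ranks among protein-coding genes.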

Additional observations from a re-analysis of the deposited data

How the results depend on the processing

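No paired analysis was possible because the table gives 1 mean per genotype, and leaving out each replicate in turn could not be run for the same reason. With no spread between libraries, a log2 ratio counted as moved when it changed sign or by 0.1 or more, and a count when it changed by over 1.5 times. The median log2 ratio of the 8 members, 0.24, was 0.078 relative to the median of expressed genes and 0.11 after scaling the *Mfn1*-/- total to the WT total. The 0 members past 2-fold became 1 (*Padi6*) at a 1.5-fold threshold, where its log2 ratio of 0.66 passed and its 0.51 and 0.53 under the 2 scalings did not, and stayed 0 under both other pseudocounts and both scalings. Of 32 member log2 ratios under these 4 alternatives, 1 changed sign, that of *Nlrp5*. In the whole table, the 1749 genes past 2-fold became 3922 with 0.01 added to each mean, 321 with 1 added, 4419 at 1.5-fold and 544 among genes with a mean of at least 1. These counts follow from the wider or narrower threshold, the pseudocount or the fewer genes. The members held 1.60% of the WT total as deposited and 0.715% per transcript length.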

Other observations

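Other maternal effect genes, whose products the embryo takes from the egg, were listed as 19 genes, all with a row. None differed by 2-fold, against 7.65% of all genes and 8.74% of expressed genes. Their median log2 ratio was -0.011, with 8 higher and 11 lower in *Mfn1*-/- oocytes, or 6 and 13 relative to the median of expressed genes. *Dppa3*, which protects maternal DNA methylation in the zygote, had 816 in WT and 812 in *Mfn1*-/- oocytes. The oocyte RNA-binding factor genes *Zar1*, with 231 and 200, and *Zar1l*, with 37.7 and 28.2, had log2 ratios of -0.21 and -0.42. *Npm2*, a nucleoplasmin that organizes oocyte chromatin, had 80.1 and 83.8.

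Among protein-coding genes, those next to a complex member in the order of WT means had log2 ratios from -1.24 to 0.79. Rows not annotated as protein-coding were left out of this order. Among them, *Gm28437*, with 494 in WT and 70.4 in *Mfn1*-/- oocytes, ranked next to *Khdc3* in the whole table. Its log2 ratio was -2.81. In the protein-coding order, next to *Tle6* stood *Tcl1b1* (100 in WT and 79 in *Mfn1*-/- oocytes) and *Pabpn1l*, an oocyte poly(A)-binding protein gene. The means of *Pabpn1l* were 99.8 and 42.2, a log2 ratio of -1.24. *Khdc3* stood between *Oog3*, an oogenesin gene with 512 and 226 and a log2 ratio of -1.18, and the growth factor gene *Gdf9*, with 461 and 533. *Ooep* stood between *Dppa5a* and *H1foo*, the oocyte linker histone gene, with 1100 and 813. *Zbed3* stood between *Eif1*, with 207 and 295, and *Birc5*, with 201 and 222. *Padi6* stood between *Uchl1*, with 130 and 131, and *Fbxw14*, with 126 and 153. Next to *Nlrp5* stood *Psmc4* (24 and 28.8) and *Mrps14* (23.8 and 22.3), next to *Nlrp4f* stood *Fbxw13* (21.3 and 19.1) and *Tmem35b* (21.3 and 21.2), and next to *Nlrp2* stood *AI413582* (5.22 and 7.58) and *Rsc1a1* (5.22 and 4.51). The genes named beside *Nlrp4f* and *Nlrp2* had the same WT mean as these members, and ties were put in alphabetical order of symbol. Other genes tied with *Nlrp4f*, such as *Eif1ax* (21.3 and 16.9) and *Ube2s* (21.3 and 18.1), are not among the neighbours. The 16 neighbours are described and were not tested.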
